A study of Mus musculus with 89 samples.

Results

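This report follows 10 mouse genes of the tight junction, the claudins Cldn2, Cldn3, Cldn4, Cldn7, Cldn15 and Cldn23, the scaffold genes Tjp1 and Tjp3, and the membrane proteins occludin (Ocln) and junctional adhesion molecule A (F11r), along the crypt-villus axis of the jejunum. They were picked by name. All 10 were found among the 27538 genes measured in small clumps of attached epithelial cells and the 23379 genes measured in single cells. Tight junctions are the seals that close the space between neighbouring epithelial cells near their luminal surface. Claudins are membrane proteins that set which ions pass between the cells, some closing the barrier and others forming channels through it, while occludin and F11r are further membrane components and the Tjp proteins tie them to the actin cytoskeleton. In the small intestine, cells are born in the crypt, migrate up the villus and are shed at its tip, so the make-up of their junctions can be read along that path.

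Clumps came from the jejunum of untreated male C57BL/6 mice on regular chow, labelled 3 months old. The tissue was only partly dissociated with EDTA, and clumps were sorted by DNA content into 384-well plates and sequenced with MARS-seq, which tags the 3′ end of each molecule with a unique molecular identifier (UMI). Pairs of cells (labelled 4n) came from mice 1 to 5 and larger clumps (labelled h4n) from mice 1, 4 and 5. Clumps of a further mouse 6 (labelled h2n) entered 1 alternative. Single cells came from 4 mice of the same strain, numbered separately, of which mouse 2 also gave 3 plates labelled 4 months. They were sorted as CD45- Epcam+, some with CD24, or on Epcam and CD24 alone. There was no genetic or drug treatment. The replicate throughout was the mouse, whose clumps or cells of a zone or type were summed.

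The zone of a clump was taken from enterocyte landmark genes, none of which is among the 10 genes. The crypt landmarks were mostly ribosomal protein genes, so that a high share of their transcripts placed a clump in the crypt. In all, 5908 clumps of mice 1 to 5 were placed. They were 3554 crypt, 1562 mid-villus and 792 villus tip clumps. Levels are given as CPM, the UMIs of a gene scaled to a total of 1000000 per sum. The sums held 80001 to 19128191 UMIs. A count of 0 allowed a level of up to 0.157 CPM in the deepest and 37.5 in the shallowest, taking 3 UMIs as the limit. Such limits cover counting error only. Summed enterocyte markers ranged from 2754 to 12101 CPM in the crypt and from 37531 to 87637 in the villus, and dividing-cell markers from 335 to 1006 in the crypt and at most 186 in the villus. The enterocyte list shares Fabp1, Fabp2, Lct and Apoa4 with the landmarks, so its rise was in part set by the zones. Other types moved with the zones too. Goblet markers were at 1054 to 2464 CPM in the crypt (median 1413), 841 to 4255 in the mid-villus (median 1494) and 1045 to 7532 at the tip (median 3384). Paneth markers, of secretory cells at the crypt base, were at 13.7 to 16356 in the crypt (median 5825, with mouse 2 the lowest), 8.53 to 1228 in the mid-villus (median 319) and 15.3 to 552 at the tip (median 409). Clumps with under 5 UMIs of each secretory list were therefore tested as an alternative. Mouse 4 stood apart, with 2111 crypt clumps and only 27 at the tip, and with the highest dividing-cell level in every zone (crypt 1006, mid-villus 169, tip 186). The results that rest on it are also given without it. In sums of this kind fewer cells of a type and less RNA per cell cannot be told apart.

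Fold changes were fitted with edgeR's quasi-likelihood test over all genes, with p-values adjusted by the Benjamini-Hochberg method and called under 0.05. Its TMM factors scale each sum to the bulk of its genes, and ranged from 0.722 to 0.988 for tip and from 0.845 to 1.25 for crypt sums. Tip values are therefore higher on that scale than in CPM. With total UMIs as the scale, the median log2 difference of all genes moved from −0.05 to −0.39 between tip and mid-villus clumps and from −0.11 to −0.50 between tip and crypt clumps. Calls of the listed genes that this scale ended or added are named with each result.

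Cldn4 and Cldn3 are neighbouring genes with a single exon each, transcribed in opposite directions away from each other. In the GRCm38 build Cldn4 lies at chr5:134945119-134946934 on the minus strand and Cldn3 at chr5:134986214-134987472 on the plus strand, 39279 bases apart with 0 annotated genes between them. Their zonation was unlike. The 250 bases before each start are therefore printed, with those of Cldn2, a crypt gene (RefSeq, GRCm38.p6, each 5′ to 3′ on the gene's strand). Capitals mark matches on either strand. The letters searched were TATAAA for the TATA box, TGANTCA for sites of AP-1, TTTATNG for those of CDX, AGATAA for those of GATA factors, CTTTGA for those of TCF factors and CACCC for those of KLF factors.
Cldn4, chr5:134946935-134947184, minus strand: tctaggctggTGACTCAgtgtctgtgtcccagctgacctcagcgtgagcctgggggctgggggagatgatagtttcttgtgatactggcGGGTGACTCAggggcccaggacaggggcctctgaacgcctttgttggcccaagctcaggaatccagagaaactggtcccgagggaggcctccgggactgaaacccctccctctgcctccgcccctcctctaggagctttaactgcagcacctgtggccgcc
Cldn3, chr5:134985964-134986213, plus strand: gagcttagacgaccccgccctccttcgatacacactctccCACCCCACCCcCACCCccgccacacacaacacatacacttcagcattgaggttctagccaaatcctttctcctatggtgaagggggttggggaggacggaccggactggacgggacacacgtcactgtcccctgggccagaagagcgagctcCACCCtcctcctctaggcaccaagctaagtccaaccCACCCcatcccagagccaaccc
Cldn2, chrX:139800558-139800807, plus strand: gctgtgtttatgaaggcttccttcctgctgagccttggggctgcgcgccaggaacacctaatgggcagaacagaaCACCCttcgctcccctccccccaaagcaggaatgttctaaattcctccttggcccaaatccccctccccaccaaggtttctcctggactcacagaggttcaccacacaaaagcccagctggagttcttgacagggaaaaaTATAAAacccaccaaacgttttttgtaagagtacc
The Cldn4 window held 2 AP-1 matches, starting 240 and 158 bases before the start, the second of which overlaps its only KLF match. The Cldn3 window held 5 KLF matches and no AP-1 match, and the Cldn2 window a TATA box and 1 KLF match. Over 32851 windows of this length, 6.75% held an AP-1 match, 12.4% a TATA box, 9.81% a CDX, 9.99% a GATA, 13.8% a TCF and 52.0% a KLF match. Of the 9 genes of the list with a window (12 windows; Cldn23 was not matched), Cldn15 and F11r also held 1 AP-1 match each, 214 and 109 bases before the start. A match describes letters only.

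Cldn2, which forms channels for small cations and water, was a gene of the crypt. Its level in crypt clumps of mice 1 to 5 was 23.6, 27.3, 34.5, 60.1 and 24.0 CPM (mean 33.9 ± 15.3, SD, n = 5). In the mid-villus it was 0, 1.22, 2.87, 13.7 and 0, and every mid-villus sum lay under every crypt sum. The fall was −3.54 on the log2 scale (SE 0.84, edgeR adjusted p = 0.0026). It passed in each of the 15 alternatives that gave a value. Cldn2 did not pass the filter on low counts with pairs only or without mouse 3. At the tip the levels were 0, 0, 1.26, 86.8 and 0 CPM, where the value of mouse 4 came from 7 UMIs in its 27 tip clumps. That sum also held the highest dividing-cell level of the tip, and the part of those cells in it was not tested. Tip against crypt was therefore −2.13 (SE 1.00, edgeR adjusted p = 0.082) with that sum and −5.26 (adjusted p = 0.00015) in an alternative, chosen after seeing the data, that kept sums of at least 50 clumps. It was −4.82 (adjusted p = 3e-05) without mouse 4. Under the mouse as a block it was −2.07 (adjusted p = 0.0053), and under total UMIs −2.47 (adjusted p = 0.0496), both of them called.

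Cldn15, the claudin of the small intestine that lets sodium return to the lumen, was highest in the middle of the axis. Crypt levels were 244, 281, 355, 261 and 192 CPM in mice 1 to 5. Mid-villus levels were 440, 444, 466, 393 and 225, and tip levels were 250, 258, 314, 161 and 87.5. The mid-villus was above both the crypt and the tip in 5 of 5 mice, although the groups overlapped because mouse 5 was low in all zones. The step from crypt to mid-villus was 0.60 (SE 0.27) and missed the threshold (edgeR adjusted p = 0.076), and so did the step down to the tip (−0.51, SE 0.28, adjusted p = 0.24). With the mouse as a block the first step was called (0.60, adjusted p = 0.0049), as it was, among others, without mouse 5 (0.84, adjusted p = 0.020). The second was not called under the block, but was with the DESeq2 test (−0.55, adjusted p = 0.048) and with mouse 6 added (−0.71, adjusted p = 0.029).

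Cldn4, a barrier claudin, had the steepest rise of the list. In the crypt it was at 0.725, 1.14, 3.13, 1.41 and 0 CPM, in the mid-villus at 1.13, 0, 10.2, 6.86 and 11.6, and at the tip at 73.0, 81.8, 203, 37.2 and 150, all 5 tip sums above all other sums. The lowest tip value, that of mouse 4, rested on 3 UMIs. Tip against mid-villus was 4.72 (SE 0.58, edgeR adjusted p = 1.4e-05) and tip against crypt 6.54 (SE 0.60, adjusted p = 3.3e-08), both called in all 17 alternatives, that of clumps low in secretory markers included. The smaller difference between mid-villus and crypt was 1.82 (SE 0.68, adjusted p = 0.035). It was lost without mouse 1 (1.89, adjusted p = 0.056), mouse 3 (1.22, adjusted p = 0.37), mouse 4 (1.70, adjusted p = 0.095) or mouse 5 (1.89, adjusted p = 0.055), with pairs only (0.94, adjusted p = 0.33) and with zones set by the highest landmark mean (1.28, adjusted p = 0.16). DESeq2 size factors (1.60, adjusted p = 0.058) and the DESeq2 test (1.65, adjusted p = 0.056) ended it too.

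Cldn7, a claudin found along the lateral membrane as well as in the junction, was higher at each step up the axis in 5 of 5 mice. Its crypt levels were 351, 394, 345, 668 and 354 CPM, its mid-villus levels 625, 645, 614, 821 and 578 and its tip levels 1517, 1301, 1215, 1723 and 900. Tip sums lay above all mid-villus and crypt sums, and crypt and mid-villus overlapped only through the crypt sum of mouse 4. Tip against mid-villus was 1.30 (SE 0.28, edgeR adjusted p = 0.0030) and tip against crypt 1.98 (SE 0.28, adjusted p = 4e-06). The latter held in all 17 alternatives and the former in all but pairs only (0.95, adjusted p = 0.18). Mid-villus against crypt was 0.67 (SE 0.27, adjusted p = 0.052). It was called with the mouse as a block (0.71, adjusted p = 0.0011), without mouse 4 (0.85, adjusted p = 0.0096) and without mouse 5 (0.83, adjusted p = 0.027). In mouse 6, left out of the fits above, Cldn4 was at 3.79, 3.93 and 218 and Cldn7 at 523, 979 and 1461 CPM in crypt, mid-villus and tip.

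Cldn3 and Cldn23 both had their lowest mean in the mid-villus. Cldn3, a barrier claudin, was at 287, 303, 355, 340 and 253 CPM in the crypt, at 163, 232, 234, 224 and 116 in the mid-villus and at 323, 210, 365, 236 and 187 at the tip. The mid-villus was below the crypt in 5 of 5 mice without overlap (−0.64, SE 0.24, edgeR adjusted p = 0.038) and the tip above the mid-villus in 4 of 5 mice (0.77, SE 0.25, adjusted p = 0.041). Neither call was firm, since each was kept in 5 of 17 alternatives. Leaving out any 1 mouse ended the first (−0.71 to −0.37, adjusted p from 0.060 to 0.27). Leaving out mouse 1, 2, 3 or 5 ended the second (0.65 to 0.78, adjusted p from 0.11 to 0.18). Total UMIs as the scale ended both (−0.68, adjusted p = 0.080, and 0.46, adjusted p = 0.33). So did keeping only clumps low in secretory markers (−0.58, adjusted p = 0.083, and 0.70, adjusted p = 0.093), with differences close to those over all clumps. Zones set by the highest landmark mean ended both with smaller differences (−0.23, edgeR adjusted p = 0.54, and 0.19, adjusted p = 0.69). Tip and crypt differed by 0.14 (SE 0.24, adjusted p = 0.67).

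Cldn23, a claudin about which less is known, was at 19.9, 35.3, 48.2, 21.9 and 18.6 CPM in the crypt, at 14.7, 12.2, 23.8, 6.86 and 34.7 in the mid-villus, and at 62.6, 46.0, 88.2, 0 and 62.5 at the tip. It was higher at the tip than in either other zone in 4 of 5 mice. In mouse 4 no UMI was seen there, which allowed up to 37.2 CPM. Tip against mid-villus was 2.10 (SE 0.47, edgeR adjusted p = 0.0042) and tip against crypt 1.39 (SE 0.42, adjusted p = 0.0080). The first call was lost without mouse 2 (1.91, adjusted p = 0.055) or mouse 3 (1.97, adjusted p = 0.062). The second was lost without mouse 1 (1.23, adjusted p = 0.061) or mouse 3 (1.27, adjusted p = 0.067), with pairs only (0.59, adjusted p = 0.19) and with total UMIs (0.96, adjusted p = 0.063). Zones set by the highest landmark mean ended both (1.03, adjusted p = 0.090, and 0.93, adjusted p = 0.051). The fall from crypt to mid-villus was −0.71 (SE 0.43, adjusted p = 0.20), and was called under the block (−0.88, adjusted p = 0.0060). Pairs alone also gave a call, at −1.42 (edgeR adjusted p = 0.0034).

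F11r, an adhesion molecule of the immunoglobulin family, was graded in all 5 mice. Its levels were 68.9, 77.5, 88.3, 67.0 and 144 CPM in the crypt, 114, 138, 167, 144 and 248 in the mid-villus and 188, 210, 263, 186 and 362 at the tip. Mouse 5 was the highest in each zone. Mid-villus against crypt was 0.92 (SE 0.36, edgeR adjusted p = 0.045) and tip against crypt 1.79 (SE 0.37, adjusted p = 0.00033), with no overlap between tip and crypt. The first call was lost without mouse 1, 2, 3 or 4 (0.88 to 1.02, adjusted p from 0.080 to 0.16), with DESeq2 size factors or the DESeq2 test (0.73 in each, adjusted p = 0.12), with clumps low in secretory markers (0.97, adjusted p = 0.068) and with zones set by the highest landmark mean (0.91, adjusted p = 0.057). Pairs only gave 0.11 (adjusted p = 0.88) for it and 0.88 (adjusted p = 0.063) for tip against crypt. Tip against mid-villus was 0.87 (SE 0.37, adjusted p = 0.13), and 0.93 (adjusted p = 0.00015) with the mouse as a block.

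Occludin and the Tjp scaffolds showed no called difference between zones. Ocln lay between 13.3 and 50.1 CPM in the crypt, 18.1 and 43.5 in the mid-villus and 15.3 and 66.8 at the tip (means 32.1 ± 14.0, 29.2 ± 11.9 and 45.7 ± 20.8, SD, n = 5). With the mouse as a block, its tip values were above the mid-villus (0.98, edgeR adjusted p = 0.017) and the crypt (0.84, adjusted p = 0.016). The latter was also called without mouse 2 (1.24, adjusted p = 0.011) or mouse 4 (0.98, adjusted p = 0.039). Tjp3 (ZO-3) was at 122 ± 23.4, 96.4 ± 44.9 and 100 ± 44.5 CPM, with mouse 1 at 177 at the tip and the other mice between 61.3 and 89.5. Tjp1 (ZO-1) ran from 9.15 to 37.6 in the crypt and from 0 to 29.4 in the mid-villus. At the tip it was seen in mice 2 and 3 only (53.7 and 34.0). Tjp3 overlaps Apba3 on the other strand and Cldn3 overlaps Wbscr25, while Tjp1 overlaps 3 predicted genes. The authors set the flags of their pipeline to the strandedness of the library.

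**Figure D1:**
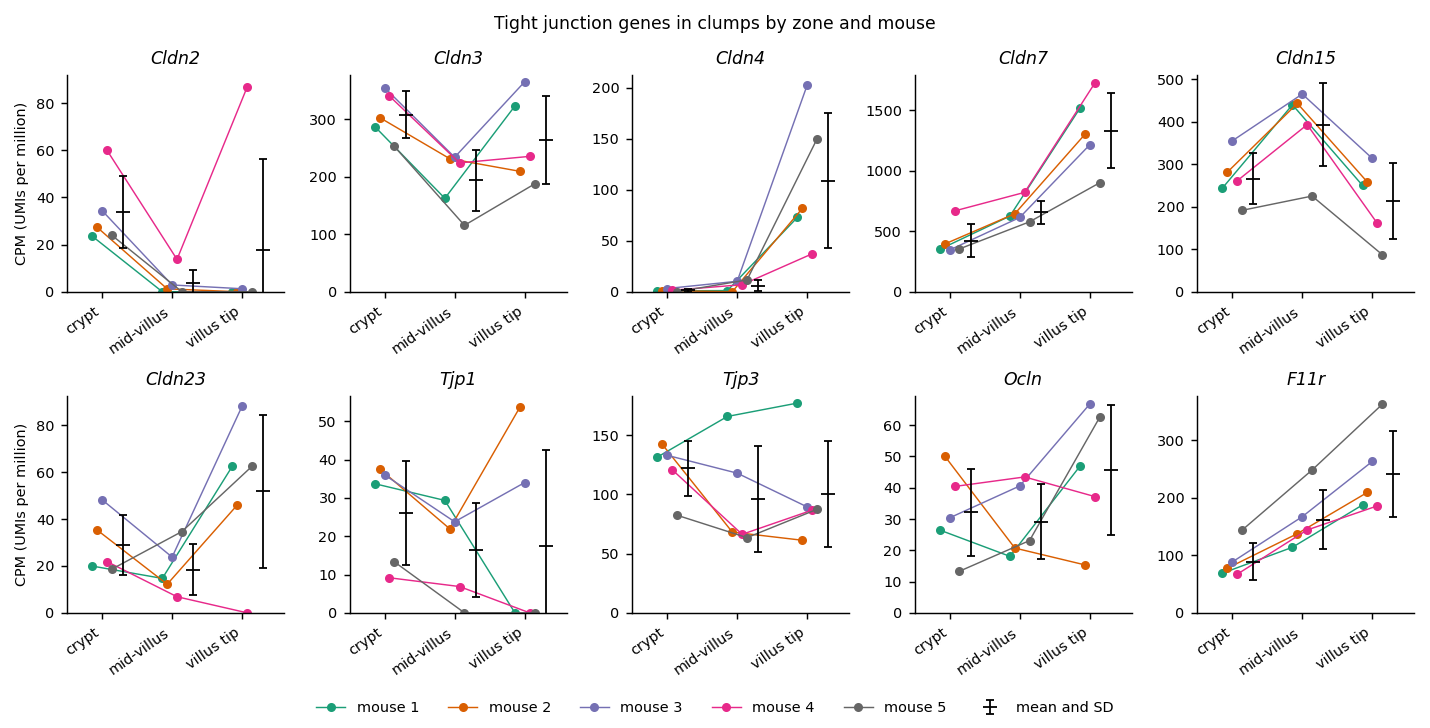
Levels of the 10 genes in clumps, in CPM (linear axes from 0), by zone; each coloured line joins the sums of 1 mouse and the black bars give the mean and SD of 5 mice. Cldn2 is seen mainly in the crypt apart from mouse 4 at the tip (86.8), Cldn15 is highest in the mid-villus of every mouse, and Cldn4, Cldn7 and F11r are highest at the tip of every mouse.

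Of the 10 genes, 2 were called higher (Cldn4, F11r) and 2 lower (Cldn2, Cldn3) in the mid-villus than in the crypt, against 16% and 24.5% of the 6994 genes tested other than landmarks. At the tip against the mid-villus, 4 were called higher (Cldn3, Cldn4, Cldn7, Cldn23) and 0 lower, where 7.21% and 5.63% of all genes were. At the tip against the crypt, 4 were called higher (Cldn4, Cldn7, Cldn23, F11r) and 0 lower, where 23.5% and 30.1% were. These comparisons share sums with each other. The median log2 differences of the 10 genes were −0.21, 0.91 and 0.64, beside −0.07, −0.05 and −0.11 for all genes tested. With total UMIs as the scale all genes split into 222 higher and 696 lower rather than 504 and 394 between tip and mid-villus, and into 1046 and 2564 rather than 1641 and 2105 between tip and crypt. Of the listed genes 2 were then higher and 1 lower in the mid-villus than in the crypt, 3 and 0 at the tip against the mid-villus, and 3 and 1 at the tip against the crypt. With the mouse as a block, 7, 6 and 6 of the 10 genes were called in either direction, against 55.4%, 27.6% and 62.1% of all genes tested.

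The other 22 claudins of a list of the family were mostly not seen. In all, 10 were in the clump table, 1 passed the filter on low counts, and none was called. Of 45 symbols of genes that act with these proteins at the junction, some of them aliases of another on the list, 42 were in the clump table. Of these, 28 could be tested. In the mid-villus against the crypt 7 were called higher and 1 lower, at the tip against the mid-villus 7 and 0, and at the tip against the crypt 15 and 2, with medians of 0.39, 0.56 and 0.86. With total UMIs, 1 of the 8, 4 of the 7 and 2 of the 17 calls were lost: Magi3 (0.73, edgeR adjusted p = 0.084), then Mllt4, Magi3, Marveld3 and Lsr (0.62 to 1.08, adjusted p from 0.064 to 0.25), and Prkcz and Lsr (0.60 and 0.36, adjusted p = 0.13 and 0.40). The gene that fell was Ybx3 (ZONAB), a transcription factor held at the junction by Tjp1. Crypt, mid-villus and tip means were 145 ± 80.3, 32.9 ± 23.0 and 7.57 ± 6.11 CPM (SD, n = 5). The difference from crypt to tip was −3.62 (SE 0.51, edgeR adjusted p = 3.1e-06). Magi1, a scaffold, also fell from crypt to tip (−1.52, SE 0.56, adjusted p = 0.026). The largest rises from crypt to tip were those of Mpp5 (Pals1), a polarity scaffold (2.93, SE 0.41), and Synpo, an actin-binding protein (2.83, SE 0.43). They were followed by Pard6b, Cxadr, Magi3, Cgn and Arhgef2 at 1.83 to 1.95 (adjusted p of all 7 from 2.7e-06 to 0.00030).

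Single enterocytes allowed the same zones to be read without neighbours in the well. Of 5199 cells kept, 2535 clustered as enterocyte-like, and landmark genes called 397 of them crypt, 902 mid-villus and 1229 tip cells. The sums held 15391 to 1960339 UMIs, and the crypt sum of mouse 1 had only 7 cells. Crypt sums also held more immune markers (520 to 3733 CPM) than those of the mid-villus (14.0 to 166) and tip (11.2 to 228). Enteroendocrine markers were at 28.0 to 2989 CPM in crypt sums and at most 29.4 and 32.6 in the other zones, and tuft markers at 112 to 520 against 41.5 to 86.8 and 51.9 to 61.6. The part of these markers in the differences was not tested. Crypt landmarks were at 12466 to 16438 CPM in these crypt sums, and at 18761 to 22262 in sums of cells that clustered as immune-like. Scaling weighed more here, since the TMM factors ran from 1.18 to 3.39 in the crypt and from 0.476 to 0.795 at the tip. With total UMIs the median log2 difference of all genes moved from 0.14 to −0.30 (mid-villus against crypt), from −0.02 to −0.66 (tip against mid-villus) and from 0.20 to −0.89 (tip against crypt).

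Cldn4 was again found at the tip. Over 4 mice its tip levels were 21.9, 120, 22.8 and 90.0 CPM, while the crypt sums held 1 UMI in all (mouse 2) and the mid-villus sums 2 (mouse 2). Taken over the 4 mice together, the tip level was 73.5 times that of the mid-villus (95% exact interval 20.1 to 611) and 55.0 times that of the crypt (9.76 to 2184), for counting error only. The fitted differences were 6.61 (SE 0.71, edgeR adjusted p = 6.5e-07) and 6.52 (SE 0.88, adjusted p = 1e-06), called in all 12 alternatives. Cldn2 was the reverse. Its crypt sums held 13 UMIs, the mid-villus sums 1 and the tip sums 0, which is at least 15.4-fold under the crypt level over the 4 mice, with 3 UMIs over the group as the limit. It did not pass the filter and was not tested in single cells.

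Cldn7 and Cldn23 rose from mid-villus to tip in single enterocytes too. Cldn7 was at 362, 426, 259 and 610 CPM in the mid-villus of mice 1 to 4 and at 482, 853, 429 and 984 at the tip (1.29, SE 0.33, edgeR adjusted p = 0.0054), higher in 4 of 4 mice. Its crypt levels, 520, 450, 271 and 514, were above those of the mid-villus in 3 of 4 mice, and tip against crypt was 1.80 (SE 0.34, adjusted p = 4.5e-05) on the TMM scale but 0.61 (adjusted p = 0.16) with total UMIs. That scale also ended the call against the mid-villus (0.72, adjusted p = 0.11), as did leaving out mouse 2 (1.22, adjusted p = 0.080) or mouse 4 (1.31, adjusted p = 0.055). Cldn23 was at 0, 7.00, 5.65 and 14.4 in the mid-villus and at 14.8, 27.2, 22.8 and 14.2 at the tip (1.98, SE 0.45, adjusted p = 0.0024), higher in 3 of 4 mice, a call kept in all 12 alternatives. Its crypt levels were 0, 18.6, 19.6 and 31.5, and tip against crypt was not called (0.76, SE 0.46, adjusted p = 0.15), nor was it with total UMIs (−0.31, adjusted p = 0.65). Mid-villus against crypt was called with the mouse as a block (−1.21, edgeR adjusted p = 0.037) and with total UMIs (−1.61, adjusted p = 0.038). The unblocked fit on the TMM scale did not call it.

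Ocln and F11r passed the test in single enterocytes on the TMM scale but not with total UMIs. Ocln was at 20.8, 23.8, 15.1 and 19.6 CPM in the mid-villus and 25.5, 50.7, 18.7 and 34.3 at the tip (1.33, SE 0.35, edgeR adjusted p = 0.0075). F11r was at 59.3, 61.6, 62.1 and 75.9 and at 53.1, 123, 62.2 and 111 (0.98, SE 0.29, adjusted p = 0.015). The former was higher in 4 of 4 and the latter in 3 of 4 mice. Against the crypt the tip differed by 0.95 (SE 0.39, adjusted p = 0.035) for Ocln and 1.23 (SE 0.32, adjusted p = 0.0017) for F11r, although each had a higher tip CPM in only 2 of 4 mice. With total UMIs these became 0.69 and 0.41 against the mid-villus, and −0.12 and 0.18 against the crypt, none of them called (adjusted p from 0.16 to 0.94). The Ocln call against the mid-villus was lost without mouse 2 or 4 (1.25 and 1.31), and that against the crypt without mouse 2 or 3 (0.91 and 0.87). The F11r call against the mid-villus was lost without mouse 2, 3 or 4 (0.79, 1.05 and 0.92). The graded rise of F11r from crypt to mid-villus clumps was not seen in single enterocytes. Crypt levels were 65.0, 65.0, 67.7 and 87.5 CPM and mid-villus levels slightly lower in 4 of 4 mice (0.25 on the TMM scale, SE 0.33, adjusted p = 0.59).

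Cldn15 had its highest CPM in the mid-villus of single enterocytes too. It was at 65.0, 204, 171 and 252 CPM in the crypt, 163, 214, 210 and 279 in the mid-villus and 72.4, 109, 93.4 and 104 at the tip. The mid-villus was highest in 4 of 4 mice. On the TMM scale the steps were 0.60 (SE 0.33, edgeR adjusted p = 0.16) and −0.60 (SE 0.32, adjusted p = 0.17). With the mouse as a block both were called (0.54, adjusted p = 0.049, and −0.59, adjusted p = 0.023). With total UMIs the step from crypt to mid-villus was 0.10 (adjusted p = 0.87), the fall to the tip −1.22 (adjusted p = 0.0078) and tip against crypt −1.11 (adjusted p = 0.0091); for the last the TMM scale gave 0.00 (SE 0.35). Cldn3 fell from crypt to mid-villus (−0.88, SE 0.35, adjusted p = 0.046), from 65.0, 111, 239 and 248 to 65.2, 79.8, 71.5 and 87.7 CPM, lower in 3 of 4 mice. That call was lost without mouse 2, 3 or 4 (−0.96, −0.54 and −0.69). Its tip levels of 48.0 to 97.1 were below the crypt with total UMIs (−1.33, adjusted p = 0.0034) but not on the TMM scale (−0.26, SE 0.34, adjusted p = 0.52). The tip was called above the mid-villus with the mouse as a block (0.67, edgeR adjusted p = 0.014) and without mouse 1 (0.77, adjusted p = 0.036). The unblocked fit of all mice did not call it. Tjp1 was at 13.9 to 65.0 in the crypt, 2.97 to 26.6 in the mid-villus and 18.4 to 27.0 at the tip. It was not called in the fit used for the other genes. Under the block by mouse the mid-villus was below the crypt (−0.90, adjusted p = 0.038) and the tip above the mid-villus (0.96, edgeR adjusted p = 0.020). Mid-villus and tip were both below the crypt with total UMIs (−1.37, adjusted p = 0.026, and −1.12, adjusted p = 0.039). Tjp3 was not called in either scale.

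**Figure D2:**
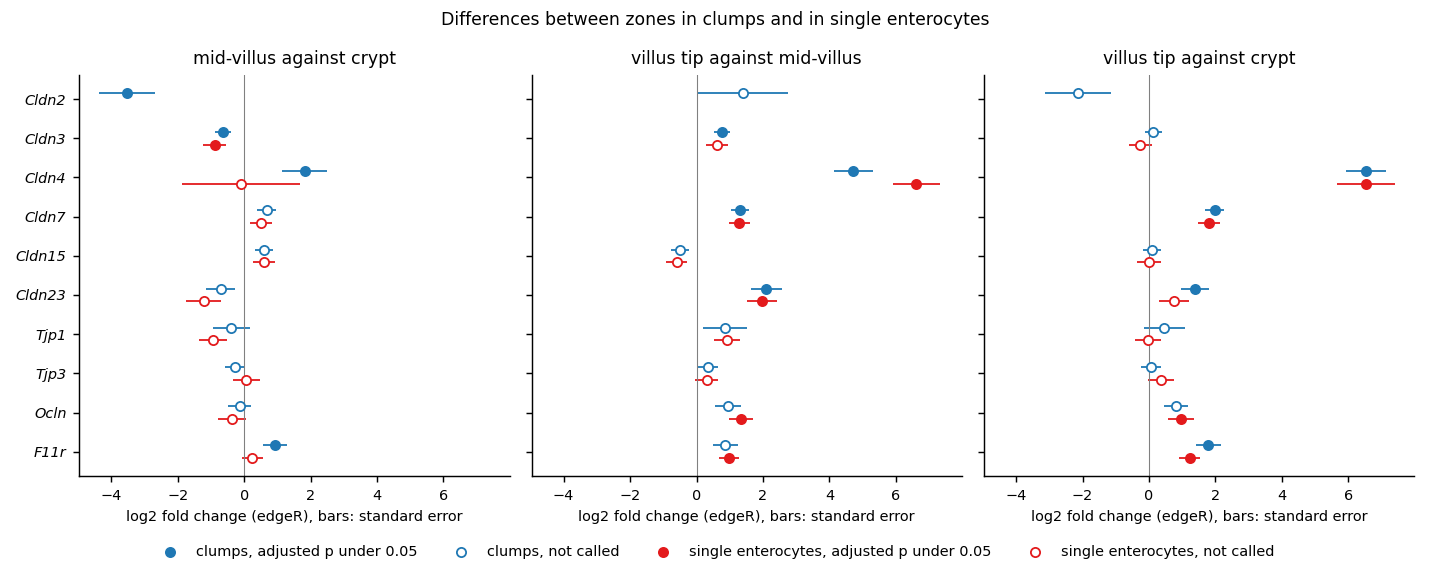
Log2 fold changes from edgeR between zones for the 10 genes in clumps (blue) and single enterocytes (red), with bars for the standard error; filled points passed an adjusted p of 0.05 and Cldn2 has no value in single enterocytes. Cldn4 has the largest rise to the tip in both, 6.54 in clumps and 6.52 in single enterocytes against the crypt.

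Of the 9 genes tested in single enterocytes, 0 were called higher and 1 lower (Cldn3) in the mid-villus than in the crypt, against 16.5% and 19% of 3990 genes. At the tip against the mid-villus 5 were called higher (Cldn4, Cldn7, Cldn23, Ocln, F11r) and 0 lower, against 13.3% and 13%. At the tip against the crypt, 4 were called higher (Cldn4, Cldn7, Ocln, F11r) and 0 lower, against 32.2% and 29.1%. With total UMIs, all genes split into 258 higher and 938 lower rather than 657 and 759, into 129 and 1302 rather than 530 and 519, and into 384 and 1849 rather than 1284 and 1162. In that scale 3 of the 9 genes were called lower and 0 higher in the mid-villus than in the crypt (Cldn3, Cldn23 and Tjp1). At the tip against the mid-villus 2 were then higher (Cldn4, Cldn23) and 1 lower (Cldn15). Against the crypt 1 was higher (Cldn4) and 3 lower (Cldn3, Cldn15, Tjp1), so that the balance of calls turned with the scale. Under the block by mouse 4 and 8 of the 9 were called in the first 2 comparisons, against 43.6% and 37.3% of all genes tested. Of 19 associates tested, 6, 8 and 15 were called higher and 0, 1 and 1 lower. With total UMIs 3 of the 6, 7 of the 9 and 10 of the 16 calls were lost. The rises were led between crypt and tip by Mpp5 (3.09, SE 0.43), Cgn (3.01, SE 0.41), Magi3 (2.74, SE 0.38) and Synpo (2.61, SE 0.39). The associate that fell was Cldnd1, a claudin-domain protein (−1.74, SE 0.41, edgeR adjusted p = 0.00054), with crypt and tip means of 50.6 ± 38.7 and 10.2 ± 3.98 CPM (SD, n = 4).

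Pairs and larger clumps were compared within the crypt and within the mid-villus; larger clumps hold more cells. No gene was called in either zone. The counts were 0 of the 9 listed genes tested in the crypt and 0 of 6 in the mid-villus, with 0% of 7312 and 0% of 4346 genes called by edgeR and none by DESeq2. There were 217 and 134 genes at an unadjusted p under 0.05 (94 and 21 by DESeq2). Differences of the listed genes ran from −0.80 to 0.80 in the crypt with standard errors of 0.33 to 0.48. They ran from −0.24 to 0.70 in the mid-villus with standard errors of 0.43 to 0.48. Cldn23 was the only gene without overlap in the crypt. It was at 17.1, 21.8 and 17.8 CPM in larger clumps of mice 1, 4 and 5 and 27.9, 35.3, 48.2, 24.4 and 26.2 in pairs of mice 1 to 5 (−0.80, SE 0.40, edgeR adjusted p = 1.00). Cldn2 in the crypt was at 29.4, 60.9 and 23.7 in larger clumps and at 6.97, 27.3, 34.5, 21.96 and 26.2 in pairs (0.80, SE 0.46, adjusted p = 1.00), with the larger clumps of mouse 4 the highest.

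Cldn4 was highest at the tip in both kinds. It was at 78.4, 26.4 and 130 CPM in larger clumps and at 71.6, 81.8, 203, 199 and 276 in pairs, some of them from 1 to 3 UMIs, against at most 12.5 in any mid-villus sum. Tip sums of pairs in mice 4 and 5 were small, and kinds were not tested at the tip. The high crypt level of Cldn7 in mouse 4 was that of its larger clumps (676), while its pairs were at 286, near the other mice (262 to 420).

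**Figure D3:**
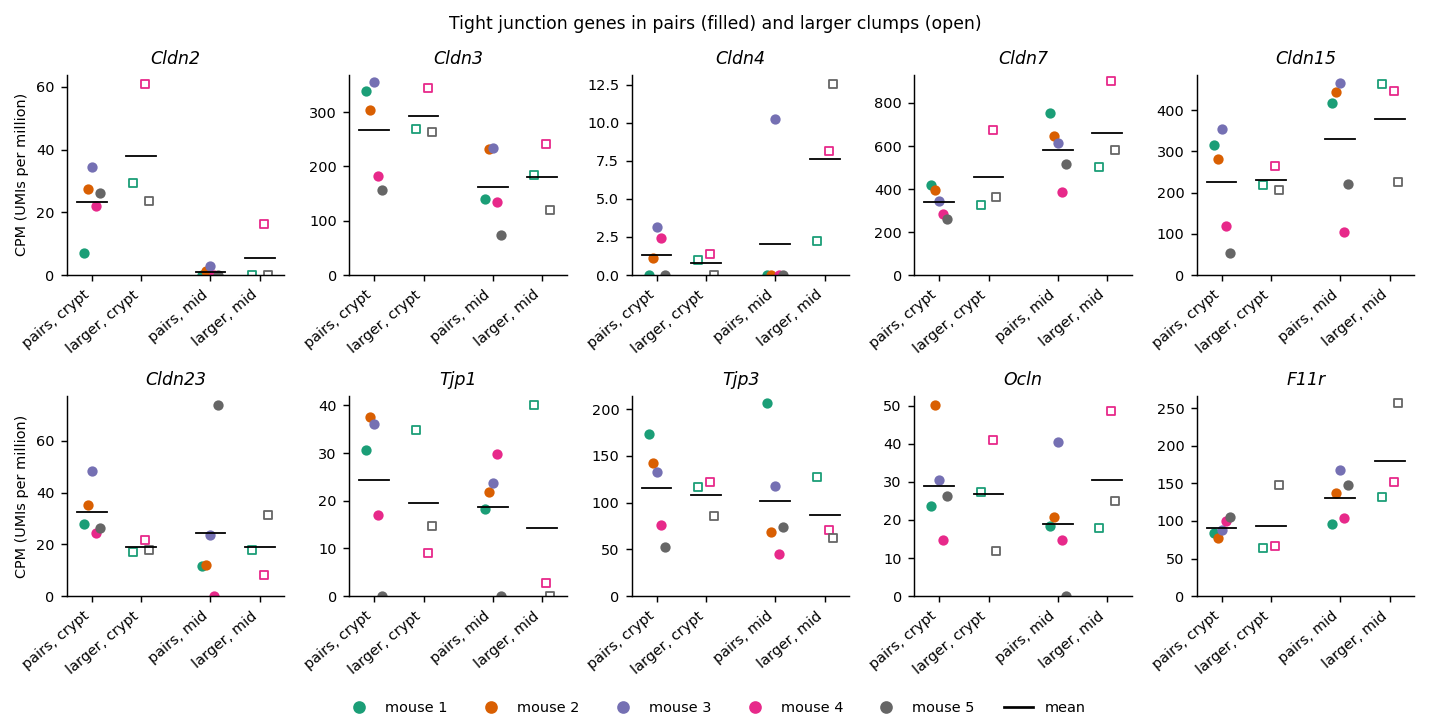
Levels of the 10 genes in CPM (linear axes from 0) in pairs (filled circles) and larger clumps (open squares) of the crypt and mid-villus, by mouse, with the mean as a black line. The kinds overlap for each gene except Cldn23 in the crypt, where pairs (24.4 to 48.2) lie above larger clumps (17.1 to 21.8).

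Across cell types the genes fell into different patterns. Types were taken from clusters of single cells named by marker genes, with the 10 genes, the other claudins and the associates kept out of the clustering. They were enterocyte-like (2535 cells), enteroendocrine-like (249), goblet-like (212) and tuft-like (187), beside 1692 immune-like cells and 324 unnamed ones. Own markers summed to 17841 to 28603 CPM in enterocyte-like, 26530 to 57996 in goblet-like, 21515 to 31485 in tuft-like and 12094 to 29558 in enteroendocrine-like sums. Enteroendocrine-like and tuft-like cells came mostly from mouse 2 (219 and 158 cells; 8 to 11 and 6 to 19 in the other mice used). A count of 0 allowed up to 266 CPM in the smallest sum. Immune-like cells serve as a reference outside the epithelial types. Whether their UMIs of the listed genes are their own or RNA from other cells was not tested. Their immune markers summed to 44218 to 49532 CPM in mice 2 to 4 but to only 2529 in mouse 1, whose sum was left out of the reference once this was seen (it held 2 UMIs of Tjp3, 1 of F11r and 0 of the other 8 listed genes). In mice 2 to 4 Cldn3 was at 8.46 to 21.7 CPM there, Cldn7 at 59.2 to 62.2, Cldn15 at 9.63 to 29.6, Cldn4 at 0 to 1.60, F11r at 7.98 to 29.6 and Tjp3 at 12.8 to 16.9.

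Cldn15 set enterocytes and goblet cells apart from the other secretory cells. It was at 85.6, 173, 173 and 197 CPM in enterocyte-like sums of mice 1 to 4 and at 137, 134, 145 and 118 in goblet-like sums. It was at 0, 2.93 and 0 in tuft-like sums of mice 1 to 3 and at 0, 11.2, 45.7 and 0 in enteroendocrine-like sums. The tuft-like sums held 1 UMI in all, so that the enterocyte level over all mice was 62.9 times the tuft level (95% exact interval 11.3 to 2486, counting error only). The fitted difference was −6.89 (SE 0.99, edgeR adjusted p = 1.1e-06). Enteroendocrine-like sums were also lower (−4.67, SE 0.73, adjusted p = 4.4e-06), at levels no higher than 45.7, or 1 UMI. Both calls passed in all 11 alternatives that gave a value, including total UMIs. Among them, sums of at least 15 cells left 1 enteroendocrine-like sum, that of mouse 2, and 2 tuft-like sums. Without mouse 2 the gene did not pass the filter on low counts in either comparison. Tuft-like sums also held immune markers at 1295 to 2005 CPM, whose part was not tested. The immune list shares Rac2 with the tuft list and holds Ptprc (CD45), which the authors state that tuft cells express. Goblet-like and enterocyte-like cells differed by −0.73 (SE 0.48, adjusted p = 0.33).

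Cldn4 was nearly absent from tuft-like cells and present in goblet-like cells. Enterocyte-like levels were 18.6, 46.5, 5.22 and 40.05 CPM, goblet-like 78.1, 238, 34.9 and 118, enteroendocrine-like 75.4, 109, 0 and 0, and tuft-like 0, 2.93 and 0, again 1 UMI in all. The tuft-like sums of mice 1 and 3 held only 53552 and 16221 UMIs, against 341688 in mouse 2, so that the near absence rests mainly on mouse 2. The enterocyte level over all mice was 10.5 times the tuft level (95% exact interval 1.86 to 417), with a fitted difference of −4.41 (SE 1.40, edgeR adjusted p = 0.016). Total UMIs as the scale ended this call (−3.34, adjusted p = 0.090), and without mouse 2 it gave no value. Goblet-like sums were higher in 4 of 4 mice (1.57, SE 0.63, adjusted p = 0.074). With the mouse as a block (1.53, adjusted p = 0.0047), with total UMIs (2.10, adjusted p = 0.027) or without mouse 1 (1.65, adjusted p = 0.030) this was called. Zones were not set for goblet-like cells, whose sums held landmark levels of both crypt (1600 to 17792) and tip (4015 to 8733). Position and type cannot be told apart here.

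Cldn3 was higher in goblet-like cells. Its levels were 50.6, 87.0, 120 and 116 CPM in enterocyte-like and 293, 342, 379 and 512 in goblet-like sums, without overlap (1.39, SE 0.48, edgeR adjusted p = 0.032). The call was kept in 5 of 12 alternatives. It was lost without any 1 of the 4 mice (0.94 to 1.44, adjusted p from 0.066 to 0.37), with sums of at least 15 cells (1.20, adjusted p = 0.070), with types by marker sums (1.20, adjusted p = 0.053) and with no filter (1.14, adjusted p = 0.37). Tuft-like sums were at 448, 579 and 185, also above every enterocyte-like sum (1.16, SE 0.51, adjusted p = 0.097; 2.26, adjusted p = 0.0021, with total UMIs). Enteroendocrine-like sums, at 151, 130, 45.7 and 88.5, overlapped those of enterocytes (−0.89, SE 0.54, adjusted p = 0.22).

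Cldn7 was present in all 4 epithelial types, at 301 to 761 CPM in enterocyte-like, 276 to 543 in goblet-like, 308 to 542 in tuft-like and 183 to 487 in enteroendocrine-like sums. It was called lower in enteroendocrine-like cells on the TMM scale (−2.08, SE 0.58, edgeR adjusted p = 0.0053), lower in 4 of 4 mice, but not with total UMIs (−0.67, adjusted p = 0.26). Sums of at least 15 cells left mouse 2 alone in that group, taken to vary like the other groups, and ended the calls of Cldn7 (−1.17, edgeR adjusted p = 0.40) and Tjp3 (−1.25, adjusted p = 0.32). For Cldn7, tuft-like cells differed by −1.38 (SE 0.62, edgeR adjusted p = 0.11) on the TMM scale, and by −1.64 (adjusted p = 0.0083) with the mouse as a block. With total UMIs Cldn7 was not called in tuft-like cells. Tjp3 was at 27.7, 45.2, 26.1 and 35.8 in enterocyte-like and at 112, 114 and 247 in tuft-like sums without overlap (0.80, SE 0.57, adjusted p = 0.37; 2.09, adjusted p = 0.0026, with total UMIs). In enteroendocrine-like sums Tjp3 was at 0, 29.0, 0 and 0 (−1.75, SE 0.67, adjusted p = 0.041), a call lost without mouse 1 (−1.59, adjusted p = 0.072) or mouse 4 (−1.64, adjusted p = 0.074) and with total UMIs (−0.54, adjusted p = 0.66). The zeros came from small sums of 26542, 21889 and 11299 UMIs. The value of mouse 2, from 447871 UMIs, lay within the enterocyte-like range.

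F11r and Tjp1 were not called between types. F11r was at 54.0 to 93.3 CPM in enterocyte-like sums and at up to 195 in goblet-like, 261 in tuft-like and 188 in enteroendocrine-like sums, each of which reached down to 61.6 or to 0 in its smallest sums. Tjp1 was at 16.4 to 29.4 in enterocyte-like sums and at up to 91.5, 123 and 91.4 in the other types. Ocln, Cldn2 and Cldn23 did not pass the filter here. Ocln was at 17.6 to 35.7 in enterocyte-like, 39.0 to 42.7 in goblet-like and 0 to 18.7 in tuft-like sums. Cldn23 was at 12.5 to 16.9 in enterocyte-like sums and at 0 in 7 of the 11 others. Cldn2 had 0 UMIs in goblet-like and tuft-like cells, which allowed up to 6.09 and 7.29 CPM over all mice, above the enterocyte-like levels of 0.432 to 3.80. In enteroendocrine-like cells it was at 26.8 in mouse 2, from 12 UMIs in 219 cells, where the enterocyte-like level of the same mouse was 1.35 and the immune-like level 2.41. This was not tested.

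**Figure D4:**
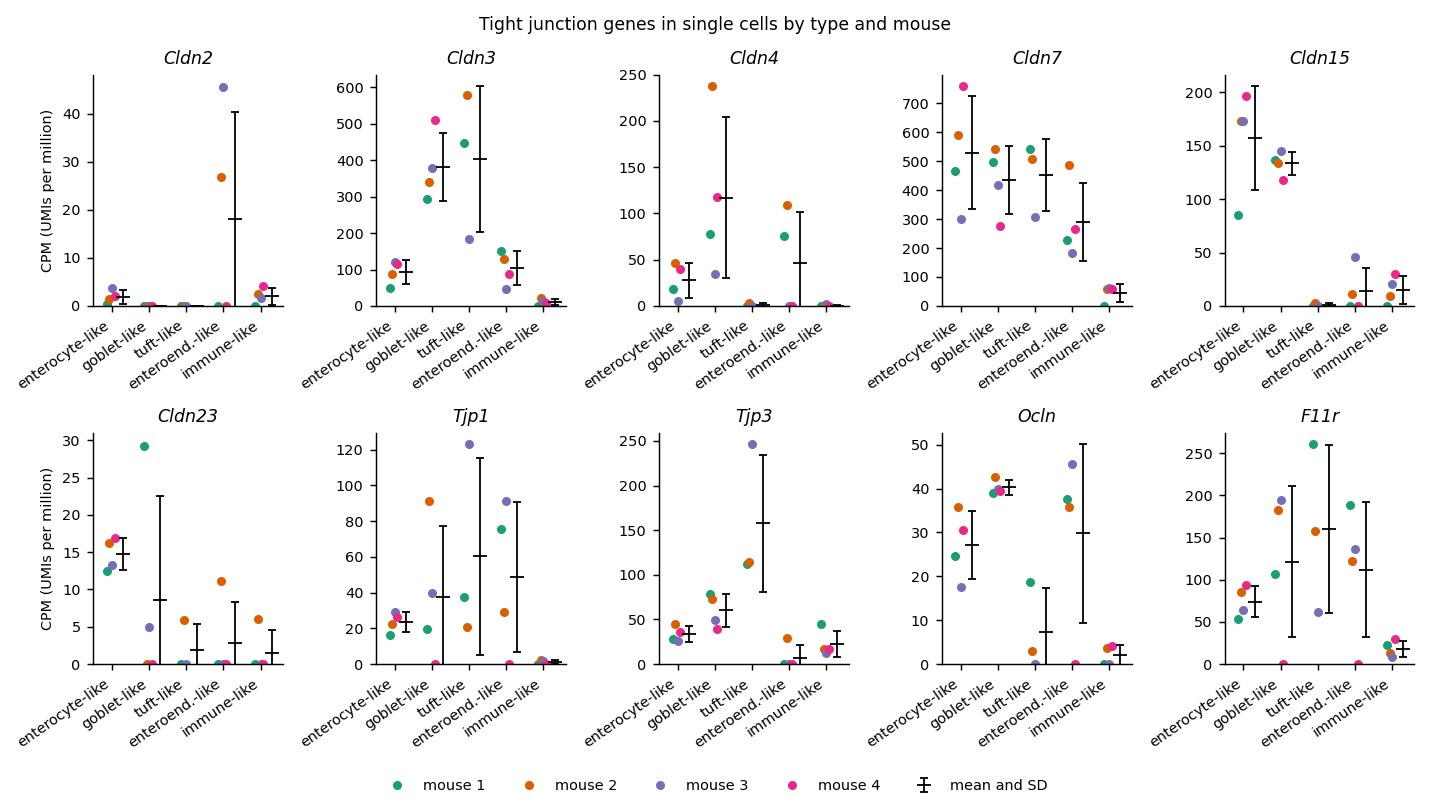
Levels of the 10 genes in single cells by type, in CPM (linear axes from 0), 1 point per mouse with the mean and SD in black. Cldn15 is near 0 in tuft-like and low in enteroendocrine-like sums, Cldn4 is near 0 in tuft-like sums, and Cldn3 is highest in goblet-like and tuft-like sums (185 to 579).

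Against enterocyte-like cells, 1 of the 7 genes tested was called higher and 0 lower in goblet-like cells (all genes 8.57% and 13.4% of 2870), 0 and 2 in tuft-like cells (10.5% and 15%) and 0 and 3 in enteroendocrine-like cells (11.7% and 20.2%). With total UMIs the median log2 difference of all genes moved from −0.07 to 0.47 (goblet), from −0.15 to 0.97 (tuft) and from −0.01 to 1.25 (enteroendocrine). The calls split into 365 higher and 228 lower rather than 246 and 385, 734 and 219 rather than 301 and 430, and 868 and 215 rather than 335 and 579. Of the listed genes, that scale called 2 higher and 0 lower in goblet-like cells (Cldn3, Cldn4), 2 and 1 in tuft-like cells (Cldn3 and Tjp3 higher, Cldn15 lower) and 0 and 1 in enteroendocrine-like cells (Cldn15). The 3 comparisons share the enterocyte-like sums. Of 11 associates tested, 1, 1 and 1 were called higher and 2, 3 and 5 lower. Ildr1, a protein of tricellular junctions, was the associate that rose in tuft-like cells. Its mean was 198 ± 22.8 CPM there (SD, n = 3) and 0.132 ± 0.263 in enterocyte-like cells (SD, n = 4; 8.25, SE 0.76, edgeR adjusted p = 3.5e-10). It was also higher in enteroendocrine-like cells (0 to 88.5 CPM; 5.56, SE 0.87, adjusted p = 5.9e-06). Its relative Lsr was at 47.3 ± 16.1 CPM in enterocyte-like and 210 ± 25.6 in goblet-like sums (SD, n = 4; 1.57, SE 0.49, adjusted p = 0.017). In tuft-like and enteroendocrine-like sums it was at 123 to 299 and 113 to 185, also above every enterocyte-like sum (at most 65.9). These differences were called with total UMIs (2.20, adjusted p = 0.0016, and 1.83, adjusted p = 0.0061) but not on the TMM scale (1.07, adjusted p = 0.16, and 0.51, adjusted p = 0.50). Mylk, the kinase that acts on junctional myosin, and Magi3 were lower in all 3 types (−1.94 to −3.89, adjusted p from 0.0015 to 0.043). Of these, only Mylk in enteroendocrine-like cells was still called with total UMIs (−2.70, adjusted p = 0.045).

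The genes whose pattern over the 15 clump sums was most like that of a listed gene, by Pearson's r of log2(CPM + 5) among 7063 genes, are given as a description, since the sums share mice, zones and depth. They were Cdk1 (0.98) and Nhp2 (0.97) for Cldn2, Dedd2 (0.96) and 2010107G12Rik (0.95) for Cldn4, Por (0.93) for Cldn7, Erlin1 (0.97) and Snx25 (0.95) for Cldn15, Prr13 (0.96) and Gm10680 (0.96) for F11r and Myo5c (0.88) and Krt18 (0.86) for Cldn3. Landmarks were part of this search, and 2010107G12Rik is a tip landmark, so its tip pattern was in part set by the zones. Values were lower for Cldn23 (Cdc42ep5, 0.84), Tjp3 (Dhx16, 0.82) and Ocln (Josd2, 0.81), and Tjp1 was most like Paip1 (0.93). Within the list, Cldn4 went most closely with F11r (0.80) and Cldn7 (0.79), and Cldn2 ran most strongly against F11r (−0.62), over the same 15 sums.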

How the data were processed

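The authors made the libraries by MARS-seq, demultiplexed them with bcl2fastq 2.15.0.4 and counted UMIs per gene and well on GRCm38; the deposited tables hold these raw counts, 1 for clumps and 1 for single cells. The members of the list, the other gene lists and the tests were chosen with earlier results of these data known. A clump well was kept if it had over 500 UMIs, 200 or more genes and no more than 30% of its UMIs from mitochondrial genes. For single cells the limits were 200 to 7000 UMIs, a gene number between 150 and 1500, and 40% for the mitochondrial share. The cells were clustered (scanpy 1.11.5, 2000 variable genes, 25 components, 20 neighbors, Leiden resolution 0.1) and named from marker genes; no doublet caller was run. Zones came from landmark genes (30 crypt, 10 mid-villus, 30 tip), and the zones of a sum are therefore not independent of enterocyte genes that vary with them. The landmarks were part of the fits and of the adjustment of p-values, but were left out of the counts of genes called. Counts of at least 5 wells were summed per mouse and group and tested in edgeR 4.0.16 (R 4.3.3, filterByExpr, TMM, robust quasi-likelihood), with DESeq2 1.42.0 as an alternative; mice were numbered separately in each table. Columns of the tables that matched no sample numbered 0. Single-cell tables share well barcodes with clumps by plate design (384), and 0 wells share a name. The fits were tested on simulated data, where the fit of mid-villus against crypt clumps recovered 200 of 200 changed genes with 10 false calls among 7125 genes. The other fits tested recovered 192 of 200 (larger clumps against pairs, crypt, 7349 genes), 162 of 178 (the same, mid-villus, 4522 genes), 125 of 136 (goblet-like cells, 2269 genes) and 178 of 195 (mid-villus against crypt single enterocytes, 4230 genes). How far these rates hold for the measured sums, their low genes and the differences reported here was not tested. Sums of 1 mouse paired by origin: the median correlation of their deviations was 0.356 within mice and −0.120 between mice for clump zones, 0.196 and 0.208 within mice for pairs and larger clumps of the crypt and mid-villus, 0.113 for cell types and 0.144 for single enterocyte zones. Genes named were the 10 listed, the associates called with the largest fold changes (up to 8 per comparison) and, of the 3 most alike genes found for each listed gene, the first or the first and second; Magi1 fell outside that rule and was named after its value was seen. The 95% intervals of ratios and the limits for counts of 0 cover counting error only.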

Additional observations from a re-analysis of the deposited data

Results flagged for a closer look

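In groups of 4 or 5 mice, single sums were set against the others by Dixon's test; 20 of 98 groups tested had a sum that stood apart, where chance gives about 1 in 20 groups, and many of these rest on few UMIs. In clumps, Cldn2 of mouse 4 stood apart in the mid-villus (13.7 CPM, 6 UMIs) and at the tip (86.8, 7 UMIs), and so did its Cldn7 in the crypt (668) and mid-villus (821). Tjp3 of mouse 1 at the tip (177) and F11r of mouse 5 in the crypt (144) were the others in clumps. Mouse 4 also had the highest dividing-cell marker level in each zone, whose part in these values was not tested.

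In single cells by type, the sums that stood apart were Cldn4 in immune-like cells of mouse 3 (1.60, 1 UMI), Cldn7 in immune-like cells of mouse 1 (0), Cldn23 in enteroendocrine-like cells of mouse 2 (11.2, 5 UMIs), in goblet-like cells of mouse 1 (29.3, 3 UMIs) and in immune-like cells of mouse 2 (6.02, 5 UMIs), and Tjp3 in enteroendocrine-like cells of mouse 2 (29.0, 13 UMIs) and immune-like cells of mouse 1 (44.8, 2 UMIs). In single enterocytes by zone they were Cldn2 in the crypt of mouse 1 (65.0, 1 UMI) and the mid-villus of mouse 3 (0.941, 1 UMI), Cldn4 in the crypt (4.64, 1 UMI) and mid-villus (2.80, 2 UMIs) of mouse 2, Tjp3 at the tip of mouse 2 (45.3, 25 UMIs), and F11r in the crypt (87.5, 25 UMIs) and mid-villus (75.9, 58 UMIs) of mouse 4.

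F11r moved in opposite directions in the tables: from crypt to mid-villus its mean was higher by 73.2 CPM in clumps, in 5 of 5 mice, and different by −6.56 in single enterocytes, lower in 4 of 4 mice on this scale. The difference between the tables was not tested, and on the TMM scale the value in single enterocytes was 0.25.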

How the results depend on the processing

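Among the values of the listed genes under all alternatives, 1092 kept their side of the threshold, 88 lost a call and 60 gained one. A further 30, called in neither fit, changed sign by at least 1 standard error, and 2 changed sign with a call gained or lost. In all, the sign changed in 93; the cause was not tested. Those 2 were in single enterocytes, tip against crypt, with total UMIs: Cldn15 (−1.11) and Ocln (−0.12). Settings of total UMIs and of larger minimum sums were chosen after seeing the data.

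Counts of listed genes called moved as follows. For mid-villus against crypt clumps (4), DESeq2 size factors gave 2, the DESeq2 test 2, pairs only 1, zones by the highest landmark mean 1 and the mouse as a block 7. For tip against mid-villus clumps (4) and tip against crypt clumps (4), pairs only gave 2 each, and the zone rule 2 for the former. For goblet-like cells (1), no filter, sums of at least 15 cells and types by marker sums gave 0 each, and the block and total UMIs 2 each. For enteroendocrine-like cells (3), total UMIs gave 1. Sums of at least 15 cells also gave 1, but left only mouse 2 in that group, which is then assumed to vary like the others. For single enterocytes, mid-villus against crypt (1), the block gave 4, total UMIs 3 and the zone rule 2, and for tip against mid-villus (5) the block gave 8 and total UMIs 3.

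Counts over all genes moved with pairs only (1501 rather than 2833 for mid-villus against crypt clumps, 536 rather than 898 for tip against mid-villus and 2409 rather than 3746 for tip against crypt), and with the block (1929 for tip against mid-villus, and 11 and 1 for larger clumps against pairs in the crypt and mid-villus). With no filter they were 2 and 8 for these last comparisons, 1213 rather than 631 in goblet-like, 1861 rather than 731 in tuft-like and 2936 rather than 914 in enteroendocrine-like cells, and 2325 rather than 1416 and 4157 rather than 2446 in single enterocytes (mid-villus and tip against crypt). Sums of at least 15 cells gave 1147 in goblet-like and 1344 in tuft-like cells.

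Leaving out 1 mouse gave these ranges of listed genes and of all genes called. In clumps they were 0 to 4 and 1649 to 3191 for mid-villus against crypt, 2 to 4 and 345 to 1025 for tip against mid-villus, and 3 to 6 and 2411 to 4023 for tip against crypt. For larger clumps against pairs they were 0 to 0 and 0 to 6 in the crypt and 0 to 0 and 0 to 7 in the mid-villus. In cell types they were 0 to 1 and 169 to 773 (goblet-like), 0 to 2 and 117 to 884 (tuft-like) and 1 to 3 and 219 to 1150 (enteroendocrine-like). In single enterocytes they were 0 to 1 and 1047 to 1704, 2 to 7 and 363 to 1208, and 3 to 4 and 2039 to 2645, in the order used for clumps. Depth limits the low genes most: tip clumps of mouse 4, crypt enterocytes of mouse 1 and the enteroendocrine-like and tuft-like sums outside mouse 2 each hold few wells.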
